A study of Homo sapiens with 8 samples.

Results

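RNA of chronically Acetalax-exposed (CE) BT549 cells was compared between 1 library of cells treated with Acetalax and 1 library of untreated cells, 2 of the 8 libraries sequenced. BT549 is a triple-negative breast cancer line with mesenchymal features. Both libraries came from CE cells, which had been grown in the drug at up to 40 μmol/L, were described in the study's methods as resistant clones, and had been kept drug-free for 2 weeks before the experiment. The treated cells then received 1 μmol/L Acetalax for 6 h, and the control cells received no drug, with no vehicle named in the sources used here. Of 55679 gene identifiers in the table, 30050 had at least 1 count in the pair, and the 10199 with a mean CPM of at least 5 over the pair are described; CPM is a gene's counts scaled to 1000000 counts on genes. The other 6 libraries were the matching treated and control libraries of BT549 parental cells and of MDA-MB468 parental and CE cells, another triple-negative line, under the same dose and time.

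Acetalax, or oxyphenisatin acetate, is a laxative of an older generation that kills some cancer cell lines. The cells swell and lose membrane integrity, a form of death called oncosis, and TRPM4, a calcium-activated channel for sodium and other monovalent cations, has been tied to this sensitivity. Cells under ionic or chemical stress commonly switch on immediate early genes, whose transcription factors are made within minutes to hours, and the unfolded protein and integrated stress responses, which slow protein synthesis and raise chaperones and amino acid supply.

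The treated library held 50572840 counts on genes and the control library 54241728, within a range of 42261122 to 54241728 over the 8 libraries. With 1 library a side, no difference within the pair has a replicate check, and the 95% exact intervals given with log2 ratios cover counting error only. Their median half-width was 0.09 on the log2 scale and the widest was 0.39. Both libraries carried the mesenchymal markers of the line: 9 of 10 reached 1 CPM in each, and they summed to 7366 CPM in control and 7132 CPM in treated cells, against 183 to 334 CPM in the MDA-MB468 libraries. Of 14 epithelial markers 6 reached 1 CPM, with sums of 362 and 274 CPM. The 11 matched blood and endothelial markers summed to 2.38 and 2.19 CPM. As in any bulk library, a change in the RNA of every cell and a change in the number of cells carrying an RNA cannot be told apart.

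Acetalax-treated BT549 CE cells had 387 genes at least 2-fold higher and 1001 genes at least 2-fold lower than control cells, 3.79% and 9.81% of the genes described, when counts were scaled to the library total. The scaling set much of this balance. With TMM, edgeR's trimmed mean of M values, every log2 ratio shifted up by 0.165, and 545 genes (5.34%) were higher and 683 (6.7%) lower. All 387 higher genes and 683 of the lower genes passed 2-fold under both scalings. Genes lower in treated cells made up 72.1% of those past 2-fold by total counts and 55.6% by TMM. The median log2 ratio of all genes described was -0.17 by total counts and -0.01 by TMM, and values below are by total counts unless TMM is named. At least 4-fold differences numbered 80 higher and 90 lower genes, and at least 8-fold differences 12 and 7. The threshold cut through a dense range: 70 genes had a log2 ratio between 1 and 1.1 and 83 between 0.9 and 1, and on the lower side the same steps held 211 and 236 genes.

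**Figure D1:**
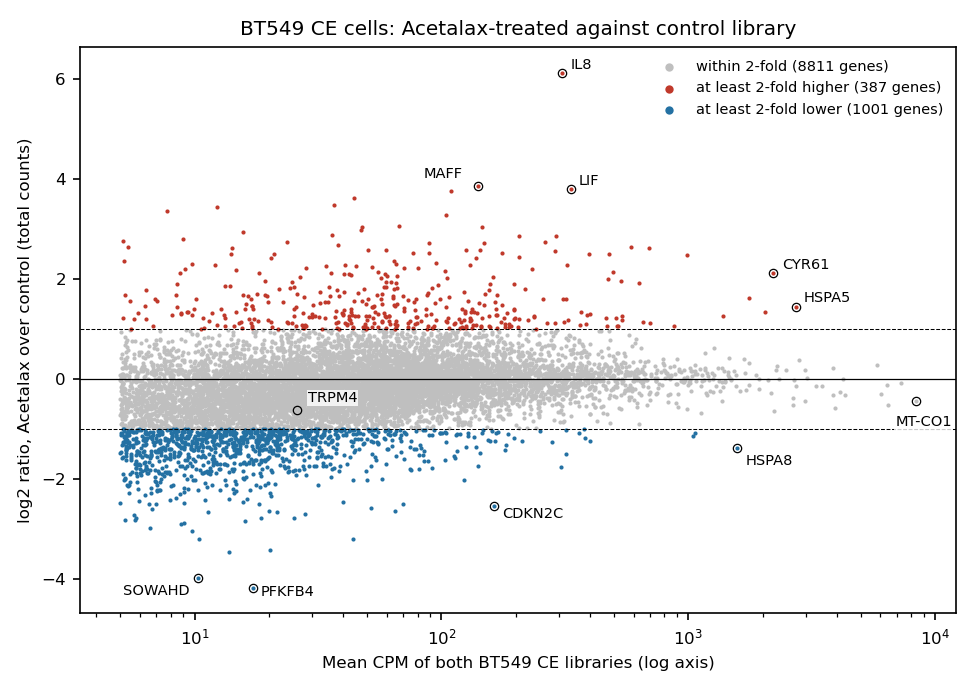
The log2 ratio of the treated over the control BT549 CE library is plotted against the mean CPM of both libraries on a log axis, 1 point per gene, with the 387 genes at least 2-fold higher in red and the 1001 at least 2-fold lower in blue; the dashed lines mark 2-fold and circles mark named genes. Higher genes lie at all levels, whereas lower genes crowd below about 100 CPM.

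The higher genes took 2.56% of the control counts and 7.54% of the treated counts, and the lower genes 4.34% and 1.74%. Lower genes were concentrated among weakly expressed ones. In the fifth of genes with the lowest mean CPM 23.1% were at least 2-fold lower and 2.3% higher, and in the fifth with the highest mean CPM 1.96% were lower and 5.78% higher. Gene span was alike in the groups, with medians of 31105 bp for higher, 33425 bp for lower and 33423 bp for all genes described.

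The highest ratio was that of IL8 (CXCL8), the neutrophil-attracting chemokine interleukin-8, which had 471 counts (8.68 CPM) in control and 30684 counts (607 CPM) in treated CE cells, a log2 ratio of 6.13 (6.00 to 6.26). Its promoter is shown because AP-1 members were among the higher genes; RefSeq places the window, 250 bases before to 50 after the start, at chr4:73740319-73740618 on the plus strand of GRCh38.p14, with the AP-1 word TGANTCA in capitals.
IL8: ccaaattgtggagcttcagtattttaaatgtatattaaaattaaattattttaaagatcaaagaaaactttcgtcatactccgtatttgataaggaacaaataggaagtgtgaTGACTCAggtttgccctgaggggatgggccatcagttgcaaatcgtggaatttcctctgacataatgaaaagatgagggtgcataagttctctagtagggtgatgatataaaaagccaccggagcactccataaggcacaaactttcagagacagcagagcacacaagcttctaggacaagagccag
After IL8 came MAFF, a small MAF transcription factor, at 18.1 and 263 CPM (3.86, 3.77 to 3.96), LIF, a cytokine of the interleukin-6 family, at 44.8 and 622 CPM (3.79, 3.74 to 3.85), and HBEGF, an EGF receptor ligand, at 15.1 and 204 CPM (3.76, 3.66 to 3.87). These 4 genes were thus all more than 10-fold higher in the treated library. IER3, an immediate early gene, had a log2 ratio of 3.63, IL6 3.48, the nuclear receptor NR4A2 3.45, TMEM217 3.36 and the small GTPase GEM 3.28. Next came CREB5 (3.06), a CREB family factor, the WNT receptor FZD8 (3.04), INHBA (3.04), which encodes the activin A subunit, the bradykinin receptor BDKRB1 (2.98) and CD274 (2.93), which encodes PD-L1. Secreted signals (IL8, LIF, HBEGF, IL6 and INHBA) and transcription factors (MAFF, NR4A2 and CREB5) made up most of these 14 genes.

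At the other end, PFKFB4, an enzyme that sets the level of the glycolytic activator fructose 2,6-bisphosphate, had 1766 counts (32.6 CPM) in control and 91 counts (1.80 CPM) in treated CE cells, a log2 ratio of -4.17 (-4.50 to -3.87). SOWAHD followed at 19.4 and 1.23 CPM (-3.97, -4.38 to -3.61), the homeobox gene HOXB8 at 25.2 and 2.29 CPM (-3.45) and RASL11A, a Ras-like GTPase gene, at 37.0 and 3.44 CPM (-3.42). LRRC32, which anchors latent TGF-beta at the cell surface, had -3.20, and the secreted protease gene ADAMTS15 was at 78.9 and 8.64 CPM, a log2 ratio of -3.19. The others were CSRP2BP (-3.03), MIR210HG (-2.97), the host RNA of the hypoxia-linked miR-210, PIK3C2B (-2.89), a class II phosphoinositide 3-kinase, SUOX (-2.87), sulfite oxidase, JAG1 (-2.84), a Notch ligand, MAGEE1 (-2.82), PDE7B (-2.81), a cyclic AMP phosphodiesterase, ZNF287 (-2.79) and C10orf10 (-2.78). All 15 had 62 to 437 counts in the treated library.

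**Figure D2:**
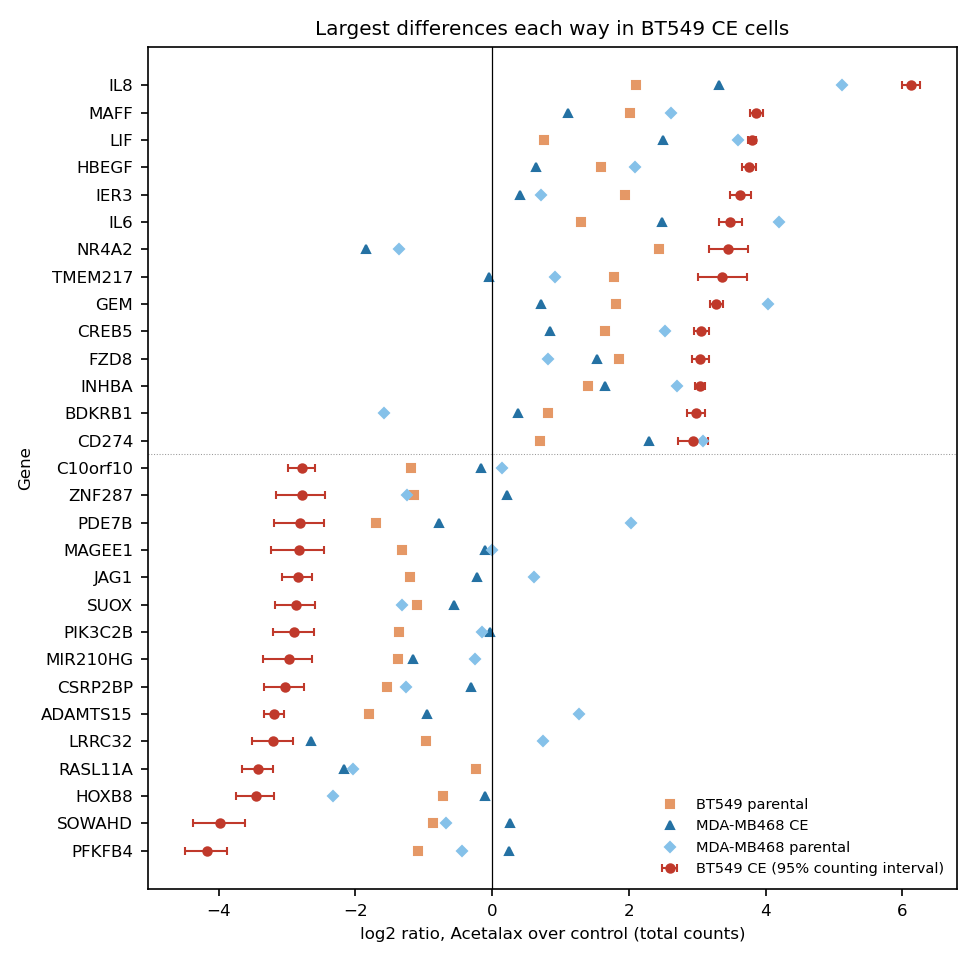
The log2 ratio of Acetalax over control (total counts) is given for 14 of the highest and the 15 lowest ratios in BT549 CE cells; red points have 95% counting intervals, and the other symbols are the values of these genes in the other pairs, 1 library a side. IL8 stands apart at 6.13, and NR4A2 is positive in both BT549 pairs and negative in both MDA-MB468 pairs.

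Transcription factors of the immediate early class were among the most shifted groups. Of 8 AP-1 subunits described, 5 were at least 2-fold higher and 0 lower, with a median log2 ratio of 1.21 against -0.17 for all genes. FOSL1, the gene of FRA-1, had 68.5 and 455 CPM (2.73, 2.68 to 2.78), ATF3, a stress-induced partner, had 22.9 and 131 CPM (2.51, 2.43 to 2.60), JUND 159 and 478 CPM (1.59), and FOSB 22.9 and 56.9 CPM (1.31). FOS itself, the classic early member, was at 116 and 89.6 CPM (-0.38), and JUN at 465 and 643 CPM (0.47). Of 6 EGR and NR4A factors and their NAB co-repressors, 5 were higher, with a median of 1.5: NR4A2 2.06 and 22.6 CPM, NR4A1 7.85 and 25 CPM (1.67), EGR2 3.58 and 10.5 CPM (1.56), and the EGR co-repressor NAB1 13.8 and 37.6 CPM (1.45). EGR1 was at 218 and 264 CPM (0.27). The small MAF and BACH group had 5 of 7 members higher (median 1.12), with MAFG at 2.16 and MAFK at 1.41 beside MAFF, and BACH1, which represses antioxidant genes, at 1.12. Zinc finger factors of the KLF family had 6 of 12 members higher and 0 lower (median 0.82), led by KLF10 (1.78), KLF5 (1.71), KLF4 (1.59) and KLF7 (1.31). Among 25 other immediate early genes 11 were higher and 2 lower, with SGK1, a kinase that regulates sodium transport, at 143 and 807 CPM (2.49) and RND3, a small GTPase, at 119 and 671 CPM (2.50).

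Growth factor signalling genes were higher at both the ligand and the feedback level. Of 6 EGF receptor ligands and ERBB receptors described, HBEGF and the ERBB3 and ERBB4 ligand NRG1 (83.2 and 310 CPM, 1.90) were at least 2-fold higher; EGFR was at 250 and 440 CPM (0.82) and ERBB2 at 89.0 and 53.1 CPM (-0.74). Of 16 genes that damp MAP kinase signalling, 7 were higher and 0 lower by total counts and 10 higher by TMM. SPRY4, a Sprouty inhibitor of receptor signalling, had 23.4 and 155 CPM (2.73, 2.64 to 2.81), the ERK phosphatase gene DUSP6 22.4 and 96.2 CPM (2.10), SPRY2 41.5 and 152 CPM (1.87) and DUSP8 16.0 and 44.6 CPM (1.48). FGF2, basic fibroblast growth factor, went from 188 to 755 CPM, a log2 ratio of 2.01 (1.98 to 2.04).

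Chemokine genes had the highest median of the lists, 2.09, with 5 of 7 members at least 2-fold higher and 0 lower. Besides IL8 these included the neutrophil chemokines CXCL1 (109 and 533 CPM, 2.29), CXCL3 (6.43 and 34.5 CPM, 2.42) and CXCL2 (16.4 and 69.6 CPM, 2.09). Cytokines and their receptors were split, with 4 of 14 higher and 3 lower, and by TMM 4 higher and 0 lower; LIF, IL6, the TWEAK receptor gene TNFRSF12A (1.80) and the kinase gene PIM1 (1.65) were the leading members. Of 23 NF-kB subunits and inhibitors, 9 were higher and 1 lower, with TRAF1 at 10.3 and 65.9 CPM (2.68), the ubiquitin ligase gene BIRC3 at 14.4 and 86.7 CPM (2.59), RELB at 28.1 and 132 CPM (2.23), TNFAIP3, which encodes the inhibitor A20, at 10.7 and 37.8 CPM (1.82), and NFKBIA at 39.0 and 61.9 CPM (0.67). Checkpoint and adhesion ligands had 2 of 11 higher, CD274 at 3.61 and 27.7 CPM and TNFSF9, the 4-1BB ligand gene, at 13.3 and 57.8 CPM (2.12).

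Interferon-stimulated genes went the other way. Of 41 described, 0 were at least 2-fold higher and 11 were lower (26.8%, against 9.81% of all genes), with a median of -0.63; by TMM 6 were lower and the median was -0.47. IFIT1, which binds viral RNA, had 10715 counts (198 CPM) in control and 2456 counts (48.6 CPM) in treated cells, a log2 ratio of -2.02 (-2.09 to -1.96). IFIT5 had -1.69, SAMD9L -1.60, SAMD9 -1.45, IFIT2 -1.22 and IFIT3 -1.07, while MX1 was at 824 and 443 CPM (-0.89) and ISG15 at 400.2 and 381 CPM (-0.07). The group was therefore not lowered evenly. The IFIT1 promoter, chr10:89392373-89392672 on the plus strand of GRCh38.p14 in RefSeq, is shown as that of the member with the lowest ratio; capitals mark the interferon response word, GAAA followed after any 2 bases by GAAA, which lies there in reverse.
IFIT1: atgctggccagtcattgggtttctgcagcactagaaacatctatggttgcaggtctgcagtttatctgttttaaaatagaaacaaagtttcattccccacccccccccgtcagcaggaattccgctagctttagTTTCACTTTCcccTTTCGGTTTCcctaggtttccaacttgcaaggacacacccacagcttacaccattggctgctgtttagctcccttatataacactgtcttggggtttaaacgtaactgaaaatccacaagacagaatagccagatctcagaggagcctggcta
MHC class I presentation genes, which interferon also induces, had a median of 0.00 with 0 of 15 higher and 1 lower, the transactivator gene NLRC5 at 59.2 and 29.4 CPM (-1.01), and 0 lower by TMM.

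Matrix and growth control genes shifted in part. Of 32 TGF-beta and activin genes, 13 were higher and 2 lower (median 0.36). INHBA had 31.5 and 259 CPM, GDF15, a stress cytokine of the family, 40.9 and 245 CPM (2.58), and PMEPA1, which damps the pathway, 21.1 and 108 CPM (2.36). TGFB2 was at 11.8 and 56.3 CPM (2.25) and the inhibitory SMAD7 at 23.7 and 52.4 CPM (1.15). Among 21 YAP-TAZ target genes 5 were higher and 1 lower, with CTGF at 300 and 1668 CPM (2.48) and CYR61, the matricellular gene CCN1, at 826 and 3598 CPM (2.12, 2.11 to 2.14), the largest gain of CPM in the pair. The actin cytoskeleton targets of SRF had 1 of 23 higher and 1 lower (median -0.01), although SRF itself was at 100.4 and 211 CPM (1.07). Of 25 collagen and matrix genes 0 were past 2-fold either way. HAS3, a hyaluronan synthase gene, had 49.7 and 361 CPM (2.86), and among 14 matrix proteases and inhibitors ADAMTS1 (2.28) and the urokinase gene PLAU (1.31) were higher.

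Genes of amino acid supply and the integrated stress response were higher as a group: of 31 ATF4 targets, 11 were at least 2-fold higher and 2 lower, with a median of 0.61. ASNS, asparagine synthetase, went from 71 counts (1.31 CPM) to 452 counts (8.94 CPM), a log2 ratio of 2.76 (2.41 to 3.15). CHAC1, which degrades glutathione, was at 9.75 and 34.2 CPM (1.81), SESN2, a restraint on mTORC1, at 34.5 and 97.1 CPM (1.49), SLC38A2, a neutral amino acid transporter, at 1150 and 2929 CPM (1.35), SLC7A11, the cystine transporter, at 18.9 and 44.7 CPM (1.24), and TRIB3 at 46.2 and 100.1 CPM (1.12). ATF4 itself was at 279 and 402 CPM (0.53) and DDIT3, the gene of CHOP, at 23.3 and 42.4 CPM (0.86). DDIT4, another listed target that also responds to hypoxia, was lower, at 561 and 239 CPM (-1.23). The 5'-most listed ASNS promoter in RefSeq, chr7:97872359-97872658 on the minus strand of GRCh38.p14, carries in capitals the word TGATGNAA of CEBP and ATF composite sites.
ASNS: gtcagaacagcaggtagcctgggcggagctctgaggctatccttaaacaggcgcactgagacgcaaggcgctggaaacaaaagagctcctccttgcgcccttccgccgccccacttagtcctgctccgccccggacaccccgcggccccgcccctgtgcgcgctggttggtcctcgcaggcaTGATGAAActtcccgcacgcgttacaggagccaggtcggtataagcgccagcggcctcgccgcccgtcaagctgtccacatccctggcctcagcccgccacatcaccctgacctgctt
ER chaperone and quality control genes were nearly all above their control level: 26 of 27 had positive ratios, and 4 were at least 2-fold higher with 0 lower (median 0.19). HERPUD1, an ER-associated degradation factor, had 70.6 and 511 CPM (2.86, 2.81 to 2.90), HSPA5, the main ER chaperone BiP, 1460 and 3985 CPM (1.45, 1.44 to 1.46), DNAJB9 13.9 and 36.7 CPM (1.40) and DNAJC3 106 and 263 CPM (1.31). XBP1 was at 89.8 and 147 CPM (0.71). The HSPA5 promoter, chr9:125241294-125241593 on the minus strand of GRCh38.p14 in RefSeq, holds an exact ER stress element, in capitals.
HSPA5: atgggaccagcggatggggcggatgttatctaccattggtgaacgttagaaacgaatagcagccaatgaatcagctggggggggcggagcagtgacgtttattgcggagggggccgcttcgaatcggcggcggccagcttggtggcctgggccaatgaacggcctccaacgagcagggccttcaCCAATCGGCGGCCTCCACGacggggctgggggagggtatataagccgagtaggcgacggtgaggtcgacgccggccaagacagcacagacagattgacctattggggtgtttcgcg

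Cytosolic heat shock chaperones did not follow the ER set. Of 18 described 1 was at least 2-fold higher, DNAJB4 (107 and 250 CPM, 1.22). The 3 lower members were HSPA8, the constitutive HSC70, at 2281 and 874 CPM (-1.38, -1.40 to -1.37), DNAJB1 at 162 and 76.1 CPM (-1.09) and HSPA4L at 23 and 11 CPM (-1.07). They were 16.7% of the list, against 9.81% of all genes described. By TMM 1 was lower, where 6.7% of all genes were. Of 24 NRF2 targets and glutathione enzymes 3 were higher and 0 lower, with HMOX1, heme oxygenase, at 219 and 848 CPM (1.96), OSGIN1 at 2.25 and 15.6 CPM (2.79) and SLC7A11; GSR, glutathione reductase, was at 81.6 and 44 CPM (-0.89). Of 20 p53 targets 8 were higher and 1 lower, but their median was 0.00, with GDF15 and SESN2, which other lists also hold, the nuclease gene AEN at 2.06, PMAIP1 at 1.85, BBC3 at 1.45 and the CDK inhibitor gene CDKN1A at 50 and 122 CPM (1.29). Zinc and metallothionein genes had 1 of 6 higher, the importer gene SLC39A14 at 1.21.

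**Figure D3:**
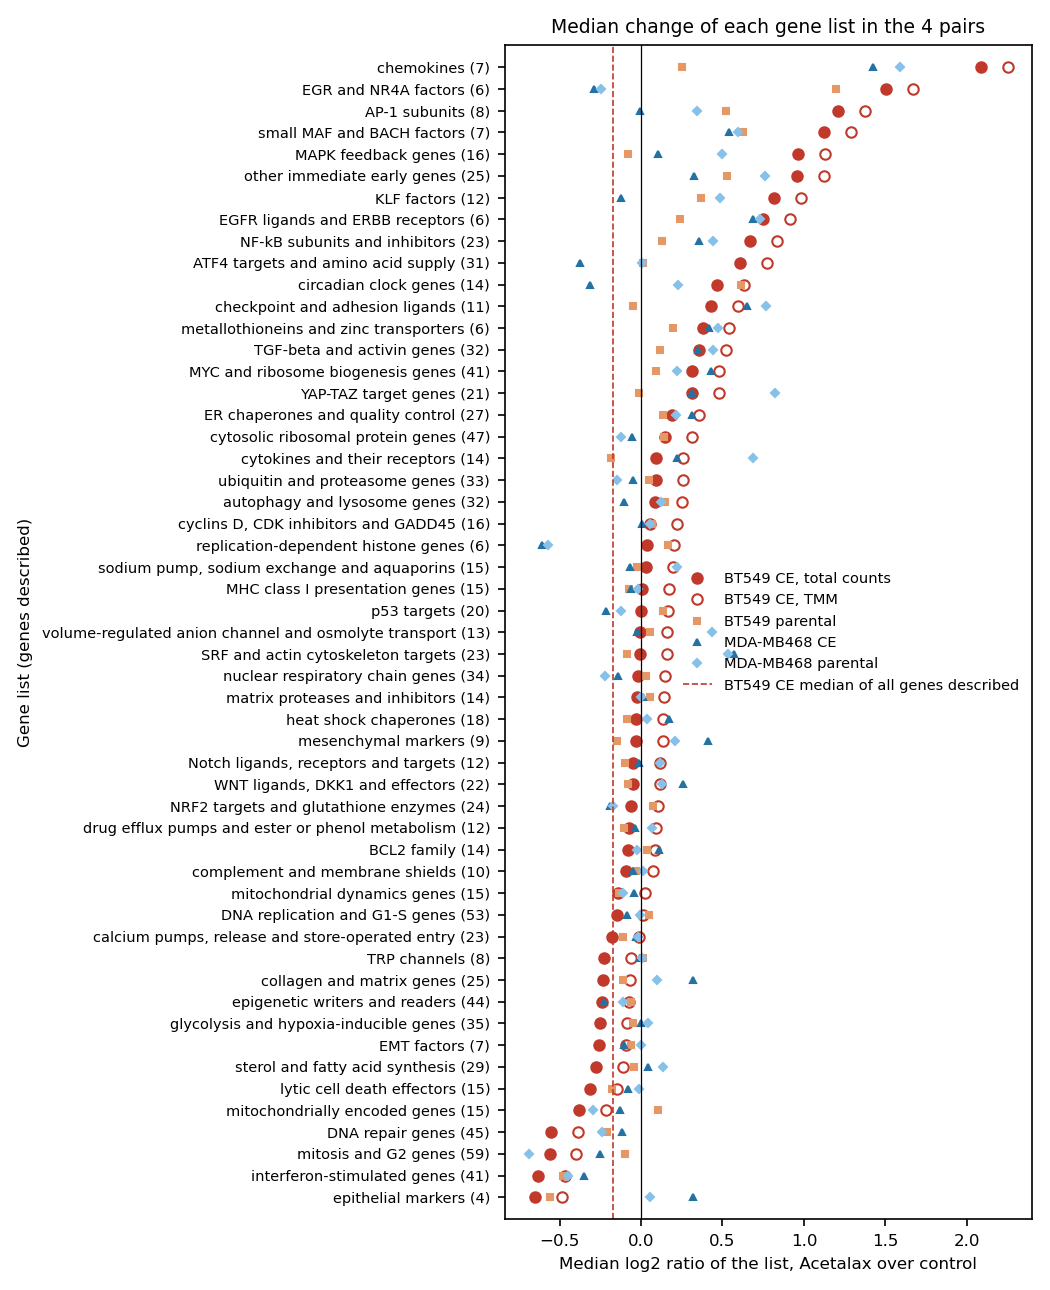
Median log2 ratio (Acetalax over control) of each gene list in the 4 pairs, with the number of genes described in brackets; filled red circles are BT549 CE cells by total counts, open circles the same by TMM, other symbols the other pairs by total counts, and the dashed line the BT549 CE median of all genes described, -0.17. Chemokines (2.09) and EGR and NR4A factors (1.5) lie at the top, interferon-stimulated genes (-0.63) and epithelial markers near the bottom.

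Few metabolic genes passed 2-fold. Of 35 glycolysis and hypoxia-inducible genes 0 were at least 2-fold higher and 3 lower, PFKFB4, DDIT4 and NDRG1 (137 and 64.8 CPM, -1.08). These 3 were 8.57% of the list, near the 9.81% of all genes described. The list median was -0.25, against -0.17 for all genes, and by TMM 2 were lower and the median was -0.09. PGK1 was at 1323 and 1058 CPM (-0.32) and VEGFA at 175 and 153 CPM (-0.20). None of 34 nuclear respiratory chain genes passed 2-fold (median -0.02). The 15 mitochondrially encoded genes stayed within 2-fold and had a median of -0.38, summing to 50773 CPM in control and 39973 CPM in treated cells; MT-CO1 was at 9629 and 7130 CPM (-0.43). The sterol and fatty acid synthesis list had 0 of 29 members higher and 2 lower (6.9%, against 9.81% of all genes described). These 2 were the cholesterol exporter gene ABCA1 (-1.86) and the ubiquitin ligase gene MYLIP (-2.43), neither of which encodes a synthesis enzyme. SREBF1, a lipid synthesis factor, was at 321 and 163 CPM (-0.97).

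Mitosis and DNA repair genes were mostly below their control level. Of 59 mitosis and G2 genes, 11 were at least 2-fold lower (18.6%, against 9.81% of all genes described) and 1 higher (median -0.56). By TMM 4 were lower, near the 6.7% of all genes, and the median was -0.40. Examples were PSRC1 at 50.5 and 15.7 CPM (-1.68), KIF20A, a kinesin of cytokinesis, at 297 and 126 CPM (-1.24), and CDC25B, the phosphatase that starts mitosis, at 527 and 233 CPM (-1.18). Of 45 DNA repair genes 7 were lower (15.6%) and 0 higher (median -0.55), with PMS2 at -1.86, BRCA2 at 25.5 and 8.46 CPM (-1.59) and PALB2 at -1.25. By TMM 3 repair genes were lower, again near the 6.7% of all genes. The 53 replication and G1-S genes had 2 lower, the primase gene PRIM1 (-2.19) and DSCC1 (-1.13), and their median was -0.15, or 0.015 by TMM. Of the CDK inhibitors CDKN2C went from 278 to 48.0 CPM (-2.53) and CDKN1B from 156 to 50.9 CPM (-1.61), whereas CDKN1A and GADD45A (84.0 and 494 CPM, 2.55), a growth arrest gene, were higher. MYC was at 157 and 311 CPM (0.98, just under 2-fold by total counts and 1.15 by TMM), and of 41 MYC and ribosome biogenesis genes 6 were higher and 1 lower (10 higher by TMM), among them RRP12 (1.39) and the MAX partner MXD1 (2.03). Cytosolic ribosomal protein genes stayed within 2-fold, but 45 of 47 had positive ratios (median 0.15).

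TRPM4 had 1716 counts (31.6 CPM) in control and 1038 counts (20.5 CPM) in treated CE cells, a log2 ratio of -0.62 (-0.74 to -0.51), and by TMM -0.46. Its ratio was -0.48 in BT549 parental, -0.03 in MDA-MB468 CE and -0.04 in MDA-MB468 parental cells. The study reported TRPM4 protein as almost undetectable in the CE lines by Western blot, so these RNA levels do not stand for protein. Of 8 TRP channel genes described 1 passed 2-fold, TRPC4, a calcium-permeable channel (12.7 and 28.2 CPM, 1.15). Among 15 sodium transport and aquaporin genes SLC4A7, a sodium bicarbonate cotransporter, was higher (97.6 and 238 CPM, 1.29) and 1 member was lower. In the volume-regulated anion channel list LRRC8A, the obligatory subunit, was at 75.5 and 170 CPM (1.18), and LRRC8D (-2.15), CLCN3 (-1.13) and LRRC8C (-1.04) were lower. By TMM 3 of the 13 members of that list were higher and 1 lower. Of 23 calcium handling genes 3 were higher, the calcineurin regulator RCAN1 at 36.1 and 215 CPM (2.57, 2.50 to 2.64), NFATC2 (1.33) and the calcium pump gene ATP2B1 (1.15), and ORAI3 (-1.32) was lower. Among 12 drug efflux and ester or phenol metabolism genes, CES2, a carboxylesterase that cleaves ester drugs, was at 53.9 and 16.7 CPM (-1.69), ABCC10 (-1.53) and ABCC5 (-1.14) were lower too, and TIPARP was higher (109 and 284 CPM, 1.38); by TMM 2 were higher and 2 lower. Lytic cell death effectors had 0 of 15 higher and 2 lower, the adaptors FADD (-1.16) and TRADD (-1.02), and by TMM 2 higher and 0 lower. Of 14 BCL2 family genes the BH3-only genes PMAIP1 and BBC3 were higher, and the survival gene MCL1 was at 403 and 747 CPM (0.89). Over all genes described 3.79% were higher and 9.81% lower, and by TMM 5.34% and 6.7%. The members past 2-fold in each of these channel, transport, drug handling and cell death lists were too few to set the list apart.

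Circadian clock genes had 5 of 14 members higher and 1 lower (median 0.47), with PER1 at 24.8 and 116 CPM (2.22), NR1D1 at 9.96 and 46.4 CPM (2.22), CRY1 at 1.73 and PER2 at 1.68. Of 12 Notch genes the ligand genes JAG1 (28.0 and 3.90 CPM, -2.84) and JAG2 (-1.06) were lower with the receptor gene NOTCH3 (-1.01). The target HEY1 was higher (2.77 and 8.17 CPM, 1.56). By TMM only JAG1 of the lower Notch members passed 2-fold, where 6.7% of all genes were lower. In the WNT list of 22 genes FZD8, FZD7 (1.95) and the inhibitor gene DKK1 (43.4 and 232 CPM, 2.42) were higher. WNT5A was 1 of 2 lower members (11.7 and 4.17 CPM, -1.49), and these 2 were 9.09% of the list, near the 9.81% of all genes. Of 44 epigenetic writers and readers 2 were higher and 6 lower (4.55% and 13.6%), against 3.79% and 9.81% of all genes described. By TMM 3 were higher and 6 lower, where 5.34% and 6.7% of all genes were. Among the lower were the gene of the chromatin protein ZMYM3 (-2.51), EHMT2 (-1.74), TET2 (-1.64) and NSD1 (-1.52), which all held at 2-fold or more under TMM. Autophagy and lysosome genes had 3 of 32 higher, FLCN (1.54) and FNIP1 (1.13) of the folliculin complex and SQSTM1 (1.07), the autophagy receptor. A group added after the values were seen, zinc finger genes named ZNF, had 23 of 158 members on chromosome 19 lower (14.6%) and 2 higher, and 43 of 174 members elsewhere lower (24.7%) and 3 higher, where 9.81% of all genes and 23.1% of the fifth of genes with the lowest mean CPM were lower.

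Motifs in the promoter windows were counted for the 8299 of the 10199 genes that matched a RefSeq window, as a description with no test and with several windows for a gene that has several starts. The AP-1 word TGANTCA was in 12% of 501 windows of higher genes, 3.29% of 1217 windows of lower genes, 4.82% of windows of genes described and 7.71% of all 35116 windows. The CEBP and ATF word TGATGNAA was in 4.19%, 2.3%, 1.98% and 3.62% of these, and the cyclic AMP word TGACGTCA in 3.99%, 1.15%, 2.93% and 1.85%. The CArG box of SRF was in 2.59%, 0.822%, 1.1% and 1.29%, the kappa-B site in 8.98%, 7.81%, 6.77% and 5.91%, and the interferon word in 2.79%, 3.04%, 2.84% and 3.57%. TGACNNNGC, the antioxidant word, was in 15%, 12.9%, 14.6% and 13.3%, TTTGAA of cell cycle promoters in 13%, 12%, 10.5% and 15.2%, and ACGTG of hypoxia response elements in 26.5%, 24%, 26.4% and 21.4%. The ER stress element was in 1 window of higher genes and 27 of all windows. All words were searched on both strands; the antioxidant and cyclic AMP words share their first letters, and a match names letters and not a bound site.

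The same 387 higher and 1001 lower genes were read in the 3 other pairs, none of which shares a library with the BT549 CE pair. The parental BT549 pair had 115 of the 10199 genes at least 2-fold higher (1.13%) and 176 lower (1.73%), the MDA-MB468 CE pair 241 (2.36%) and 173 (1.7%), and the MDA-MB468 parental pair 446 (4.37%) and 295 (2.89%). Of the 387 genes, 93 were also at least 2-fold higher in BT549 parental cells, which is 24% of the 387 and 80.9% of the 115. The corresponding overlap was 73 genes (18.9% and 30.3%) with MDA-MB468 CE cells and 145 (37.5% and 32.5%) with MDA-MB468 parental cells. Of the 1001 lower genes 149 were shared with BT549 parental cells (14.9% and 84.7%), 67 with MDA-MB468 CE cells (6.69% and 38.7%) and 142 with MDA-MB468 parental cells (14.2% and 48.1%). Of the 387, 370 (95.6%) had a positive ratio in the parental BT549 pair, 279 (72.1%) in MDA-MB468 CE and 349 (90.2%) in MDA-MB468 parental cells, against 36.3%, 43.8% and 42% of all genes described, and their median log2 ratios there were 0.61, 0.35 and 0.74. Of the 1001 lower genes, 983 (98.2%), 717 (71.6%) and 791 (79%) had a negative ratio in these pairs, against 63.7%, 56.2% and 58% of all genes described.

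A core of 13 genes was at least 2-fold higher in all 4 pairs: C3orf52, CLCF1, CYR61, DKK1, GADD45A, HDAC9, IL6, IL8, INHBA, IRS2, MAFF, PLD6 and SGK1. Lower in all 4 were C1RL, DHX58, FAM84A, IFIT1, IFIT2, PCDH18, SAMD9L, TXNIP and ZNF467, of which IFIT1, IFIT2 and SAMD9L are in the interferon list. No minimum level was required in the other pairs for either set, so members can rest on few counts there. TXNIP had only 4 and 3 counts in the MDA-MB468 CE and parental controls and 0 after Acetalax. By contrast FGF2, KCTD11 and SIPA1L3, higher in BT549 CE cells, had log2 ratios within 0.25 of 0 in the 3 other pairs. ADAM19 and TRPC4 were within 0.25 of 0 in BT549 parental cells and had 0 counts in the MDA-MB468 libraries.

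The 2 BT549 backgrounds also differed in their control levels. IL8 was at 8.68 CPM in CE control and 85.4 CPM in parental control cells, and at 607 and 367 CPM after Acetalax, so that the treated levels were closer than the ratios. HMOX1 was alike in both, with 219 and 223 CPM in controls and 848 and 798 CPM after Acetalax, and so was ATF3, at 22.9 and 31.9 CPM and then 131 and 124 CPM. Over the 387 higher genes the CE control was below the parental control for 319 (82.4%, against 53.4% of all genes), with a median log2 ratio of CE over parental controls of -0.60, and CE treated cells were above parental treated cells for 269 (69.5%, against 43.4%). The CE control library entered the choice of these genes, so both shares are descriptions. PFKFB4 was at 32.6 CPM in CE control and 2.56 CPM in parental control cells, and at 1.80 and 1.20 CPM after Acetalax, and IFIT1 at 198 and 6.89 CPM and then 48.6 and 2.74 CPM.

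**Figure D4:**
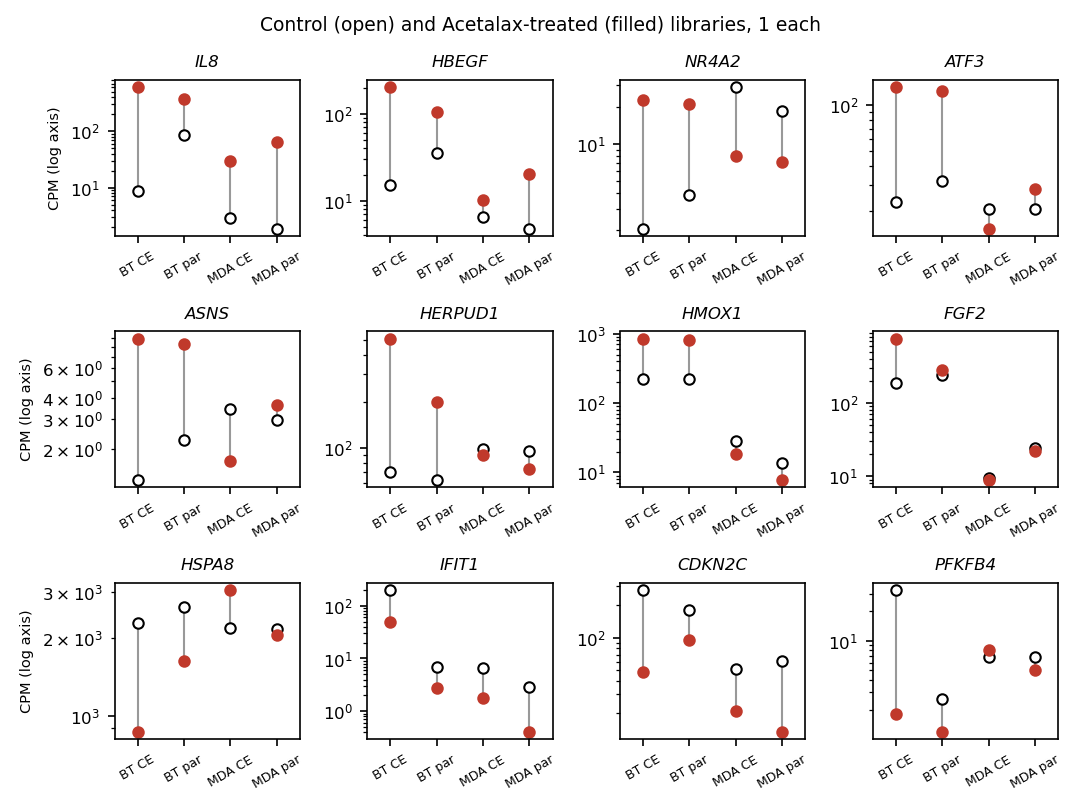
CPM on a log axis in the control (open) and Acetalax-treated (filled) library of each background for 12 genes, with BT for BT549, MDA for MDA-MB468 and par for parental, 1 library per point. HMOX1 and ATF3 move alike in both BT549 backgrounds, FGF2 is at 188 and 755 CPM in BT549 CE cells and nearly level in the other 3, and PFKFB4 and IFIT1 start highest in BT549 CE control cells.

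Whether the Acetalax response of BT549 CE cells differed from that of the other backgrounds was tested with edgeR's quasi-likelihood test over all 8 libraries, in which the 3 other pairs supply the spread with 2 residual degrees of freedom. At an adjusted p under 0.05 it called 0 of 20991 genes (0.0%), with 1794 genes at an unadjusted p under 0.05. The smallest adjusted p was 0.162, for FGF2, higher in BT549 CE cells, and for TRIB3, which had log2 ratios of 1.12 in BT549 CE cells and -0.67 in parental BT549, -0.96 in MDA-MB468 CE and -0.87 in MDA-MB468 parental cells. HAS3 had an adjusted p of 0.183 by the same edgeR test, and PFKFB4 and SOWAHD 0.255. DESeq2's Wald test on the same design called 109 genes, 69 with a larger and 40 with a smaller ratio in BT549 CE cells.

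Of the settings tried, leaving out the BT549 parental pair changed the count most. Without BT549 parental cells, when BT549 CE cells are set against both MDA-MB468 pairs with 1 residual degree of freedom, edgeR called 1360 of 20457 genes, 421 with a larger ratio in BT549 CE cells (2.06%) and 939 with a smaller ratio (4.59%). There the line and its drug history cannot be told apart, and the 2 MDA-MB468 pairs are backgrounds of 1 line. The genes with a larger ratio included NR4A2 (log2 difference 5.14, edgeR adjusted p = 1.4e-05), HERPUD1 (3.18, 1.4e-05), HMOX1 (2.75, 1.4e-05), RCAN1 (2.80, 1.4e-05) and ATF3 (2.58, 0.00079), each of which was also at least 2-fold higher in BT549 parental cells except RCAN1, at 0.79. Of 33 ATF4 targets 17 were called with a larger ratio and 0 with a smaller one, and of 9 EGR and NR4A factors 4 and 0. Over all genes tested these shares were 2.06% and 4.59%. In the BT549 parental pair 2 of the 31 ATF4 targets described were at least 2-fold higher (median 0.01), and 4 of the 6 EGR and NR4A factors were (median 1.20). Of 44 interferon-stimulated genes 0 and 3 were called, and of 23 cytokines and receptors 0 and 2, too few to set either list apart. Their median log2 differences were 0.06 and -0.36. PFKFB4 (log2 difference -4.01, edgeR adjusted p = 9.6e-05), JAG1 (-2.97, 0.00049), C10orf10 (-2.70, 0.00041) and HSPA8 (-1.51, 0.00037) had smaller ratios, as did the chemokine gene CXCL1 (-1.76, 0.002), whose log2 ratio was 2.29 in BT549 CE cells and 3.92 and 4.13 in MDA-MB468 CE and parental cells.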

How the data were processed

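Polyadenylated RNA was read as paired ends of 101 bases. STAR was used by the authors for alignment to hg19, and they deposited raw counts, whole numbers of reads per gene and library without normalization; the strand setting and annotation are not given in the sources used here, so overlapping antisense genes and near-identical copies are uncertain. Of 58154 rows, each of 55679 identifiers was kept once (1392 were repeated, 3 with differing counts), and 28 symbols that had become dates were restored through the identifier. Deposited counts per library were between 42261122 and 54241728.

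CPM used the total counts on genes. The log2 ratio of treated over control took 0.5 added counts, and exact 95% intervals of the 2 counts cover counting error only. Genes needed a mean of at least 5 CPM in the pair and were called higher or lower at 2-fold; alternatives are given in the closing section. The difference between backgrounds was tested with edgeR 4.0.16 (R 4.3.3, quasi-likelihood test, TMM, filterByExpr, Benjamini-Hochberg adjustment, threshold 0.05) with an intercept for each of the 4 backgrounds, a common Acetalax term and an extra term for BT549 CE cells, and with DESeq2 1.42.0. The edgeR test was also run on data simulated with the means and dispersion of the real fit. There it called 55.7% of 97 genes changed by 2 on the log2 scale and 88.7% of 97 changed by 3, so a call of 0 genes can miss real differences. With 1 library per condition, backgrounds and not replicate cultures supply the spread, and p-values measure only that. Groups were read from the labels; dose and duration also follow the study's methods.

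Named genes were the 15 largest rises and 15 largest falls, the 8 largest gains and losses of CPM, up to 4 members of each list with the largest ratio in size, TRPM4, and the 8 smallest edgeR p-values in each direction. Other list members and genes shared by all pairs were chosen after their values were seen. The members and 54 lists were chosen with earlier results of these data known. Promoters came from RefSeq (GRCh38.p14), matched by symbol. Some genes that these rules cover are not reported here.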

Additional observations from a re-analysis of the deposited data

Results flagged for a closer look

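Named genes past 2-fold in BT549 CE cells and past 2-fold in the opposite direction in another pair with a mean of at least 1 CPM are given here; within pairs the difference has no replicate check, and the edgeR test over all 8 libraries called none of them. Without the BT549 parental pair, with 1 residual degree of freedom, edgeR called all 7, at adjusted p from 1.4e-05 (NR4A2) to 0.004 (SLC7A11). These 7 were chosen for opposite ratios, each time in an MDA-MB468 pair, so a large difference from those pairs was built into the choice. The calls are therefore a description and no separate support. NR4A2 had a log2 ratio of 3.449 in BT549 CE cells and 2.43 in BT549 parental cells, against -1.85 in MDA-MB468 CE cells (1269 and 379 counts) and -1.36 in MDA-MB468 parental cells (893 and 346 counts). EGR2 had 1.557 and 1.45 in the BT549 CE and parental pairs and -1.1 and -1.87 in the MDA-MB468 CE and parental pairs, from 16 to 66 counts. CHAC1 had 1.808 and 0.83 in the BT549 pairs and -0.96 and -1.17 in the MDA-MB468 pairs. ASNS had 2.763 and 1.86 against -1.01 in MDA-MB468 CE cells (152 and 81 counts) and 0.30 in MDA-MB468 parental cells. SLC7A11 had 1.240 and 0.58 against -1.40 and -0.39. MIEF2, a mitochondrial fission adaptor gene, had -1.815 and -0.48 in the BT549 pairs and 1.00 and 1.47 in the MDA-MB468 pairs. WNT5A had -1.491 and -1.33 against 0.74 and 1.09. In these 7 genes the BT549 parental pair had the sign of the BT549 CE pair.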

How the results depend on the processing

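The median log2 ratio of the genes described was -0.007 with TMM, 0.030 with DESeq2's size factors and -0.080 with a minimum of 20 CPM. With DESeq2's size factors 581 genes were higher and 627 lower. Lower genes numbered 1650 of 12715 with a minimum of 1 CPM, 364 of 7229 with 20 CPM and 378 as a difference of log2(FPKM+1), which understates changes of weakly expressed genes. TMM changed the sign of 15 of 53 list medians and the side of 2-fold for 25 of 241 named genes, and DESeq2's size factors 16 and 30. The test of the difference between backgrounds called 118 genes without the expression filter and 109 with DESeq2's Wald test; leaving out 1 pair gave 0 to 1360.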
